A study of Mus musculus with 6 samples.

Results

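Translation initiation factors are the proteins that bring a ribosome, the initiator tRNA and an mRNA together and find the start codon. The genes described here are the protein_coding rows of the deposited mouse liver table whose gene name begins with Eif and a number from 1 to 6, without the eIF2 kinases (Eif2ak). This rule found 55 of 23631 rows, of which 17480 are protein_coding. The 55 rows carry 54 names, because Eif4e3 is listed under 2 identifiers, and 4 of them are Argonaute genes listed under their older symbols Eif2c1 to Eif2c4, which leaves 51 rows without the Argonautes.

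The study sequenced total RNA of livers from male mice of the inbred strain C57BL/6J on an Illumina platform, in 6 libraries. The labels put 3 libraries in a group fasted for 48 h and 3 in a group called re-fed, named refed here. The treatment protocol speaks of normal feeding instead of refeeding, so the history of the second group is not settled. All samples are whole liver homogenates, no genetic change is named for either group, and the sources used here do not give the age of the mice or the number of animals per library.

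Initiation begins when eIF2 carries the initiator tRNA to the small ribosomal subunit, helped by eIF1, eIF1A, eIF3 and eIF5, while the cap-binding complex eIF4F (eIF4E, eIF4A and eIF4G) recruits the mRNA. Nutrients act on this step at the protein level in a pair of known ways: mTORC1 phosphorylates the 4E-binding proteins, which otherwise hold eIF4E away from eIF4G, and stress kinases phosphorylate eIF2, which then blocks its exchange factor eIF2B. The liver makes most plasma proteins, but protein synthesis was not measured here. RNA counts show the transcripts of these factors and not the phosphorylation or amount of the proteins.

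Promoter windows from RefSeq (GRCm38.p6, 250 bases before to 50 after a start) were at hand for 42 of the 55 genes. Many mRNAs of the translation machinery are known to start with a C and a run of pyrimidines, and such a start is printed here because it is the sequence feature most often linked to nutrient control of these mRNAs. A C followed by at least 4 C or T, beginning within 5 bases of a start, was found for 11 of 42 initiation factor genes (26.2%), against 21.2% of all genes with a window and 24.1% of the tested ones. The 3 longest runs, counted from the first C within those 5 bases, are shown in capitals with 10 bases before the start and 20 from it, for Eif3f (chr7:108934405-108934434, plus strand), Eif2s3x (chrX:94212632-94212661, minus strand) and Eif2s3y (chrY:1010585-1010614, plus strand).
Eif3f: tctaggCTCTCTCTCTTTCTCggcaagatg
Eif2s3x: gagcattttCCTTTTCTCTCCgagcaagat
Eif2s3y: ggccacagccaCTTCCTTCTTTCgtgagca

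A second set is shown because genes with and without it are set side by side below. The E-box CACGTG, which reads the same on both strands, was present in the windows of 10 of 42 initiation factor genes (23.8%). The shares were 8.09% of all genes with a window and 11.6% of the tested ones. The copies in Eif4e (chr3:138527192-138527221, motif at position -64 from the start), Eif4g1 (chr16:20672661-20672690, position -54) and Eif3f (chr7:108934335-108934364, position -68) lie on the plus strand and are in capitals.
Eif4e: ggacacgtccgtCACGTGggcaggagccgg
Eif4g1: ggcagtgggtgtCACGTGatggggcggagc
Eif3f: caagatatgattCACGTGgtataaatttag
The ETS-type motif CCGGAA, searched on both strands, was found for 21 of 42 genes (50%), against 16.7% of all genes with a window and 30.8% of the tested ones. A copy on the opposite strand is shown for Eif4a2 (chr16:23107293-23107322, plus strand, position -163).
Eif4a2: aaccctattctgTTCCGGcacggaacgcgg
A window may hold several of these motifs, and matches of different motifs may overlap. The CRE motif TGACGTCA was found for 0 of 42 genes, against 2.03% of all genes with a window and 3.47% of the tested ones. The ATF4-type motif TGATGNAA was in the window of Eif2s3x alone (2.38%, against 4.51% and 2.83%). The FOXO motif GTAAACA was in that of Eif2s3y alone (2.38%, against 4.05% and 3.29%). Each was searched on both strands.

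Total counts ranged from 34170489 to 36026753 in fasted and from 29574528 to 32988426 in refed libraries, and 3 counts correspond to between 0.0844 and 0.0946 CPM. The initiation factor rows took 0.641%, 0.601% and 0.581% of the reads in fasted and 0.492%, 0.503% and 0.529% in refed libraries. The summed hepatocyte markers Alb, Apoa1, Ttr, Cps1 and Tat lay between 114078 and 132589 CPM in fasted and between 83916 and 100593 CPM in refed livers. The markers did not move together, with 3 of 5 higher in fasted livers (Apoa1, Cps1 and Tat) and 1 lower (Ttr). Alb did not pass, with a log2 fold change, fasted over refed, of 0.06. Fasted replicate 3 stood apart from fasted replicates 1 and 2, with a chi-square per gene of 236 and 211 against 35.7 between those 2. The neutrophil genes S100a8 and S100a9 had 49.0 and 71.4 CPM in fasted replicate 3 and were under 1 CPM elsewhere. Erythroid markers summed to between 14.1 and 22.6 CPM in fasted and between 89.7 and 123 CPM in refed livers, almost all of it from Alas2. Kupffer cell markers summed to between 12.6 and 68.6 CPM in fasted livers, lowest in fasted replicate 1, and between 47.2 and 64.0 CPM in refed livers, with 0 of 5 higher and 1 lower. Of 5 markers each, endothelium had 1 higher and 0 lower, stellate cells 1 higher and 1 lower, and cholangiocytes 2 higher and 1 lower, and the lymphocyte markers summed to under 1 CPM in every library. The part of such other cells in the results was not tested. In bulk tissue, a change in the number of cells of a type and a change in RNA per cell cannot be told apart.

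Transcripts of initiation factors were more often higher than lower in fasted liver. The largest change was in Eif4ebp3, whose product keeps the cap-binding protein from its scaffold. Of 52 genes with enough reads to be tested, 27 were higher in fasted livers (51.9%, against 29.2% of all 13248 tested genes) and 5 were lower (9.62%, against 30.2% of all tested genes), at an adjusted p under 0.05 in edgeR's quasi-likelihood test. The remaining 20 did not pass. The median log2 fold change, fasted over refed, was 0.38, against -0.0004 over all tested genes, and 42 of the 52 values were above 0. Of the 27 higher genes, 20 changed by less than 2-fold. The other 7 were Eif4ebp3, Eif2c4, Eif4ebp1, Eif1, Eif6, Eif4a2 and Eif4enif1. Eif2c3 was the 1 gene that was lower by at least 2-fold.

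All 3 fasted libraries lay above all 3 refed libraries for 30 of the 52 genes (57.7%, against 32.8% of all tested genes) and below them for 5 (9.62%, against 34.4%). Of the 32 calls, 19 passed in each of the 14 other settings tried, 17 of them higher and 2 lower. Those 2 were the Argonautes Eif2c1 and Eif2c3, and the Argonaute Eif2c4 was among the higher ones. The lower calls on Eif1b, Eif2b1 and Eif3l each failed in some settings. The count of lower genes was 2 without fasted replicate 1, refed replicate 1 or refed replicate 2, and 3 without fasted replicate 2 or refed replicate 3. Lower calls over all genes also fell in those fits, from 3999 to between 3411 and 3686. Library totals in place of TMM scaling move the median of all genes to -0.21. With them, 17 initiation factor genes were higher and 7 lower, with a median of 0.16. In the authors' deposited table, 28 of the 55 rows were higher and 5 lower at their adjusted p under 0.05, and the 32 calls made here had the same direction there.

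**Figure D1:**
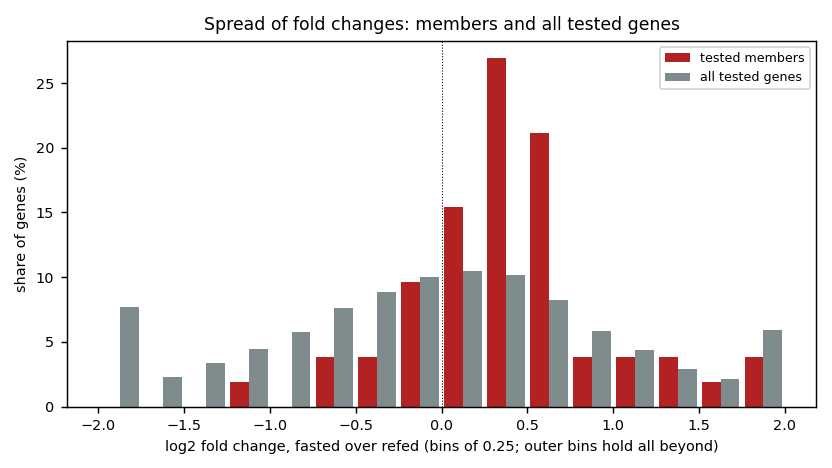
Share of genes (y axis, percent) in each bin of log2 fold change, fasted over refed (x axis), for the 52 tested initiation factor genes and for all 13248 tested genes. The initiation factor genes are gathered between 0 and 0.75, with 0 genes in the lowest bin, which holds 7.65% of all genes.

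**Figure D2:**
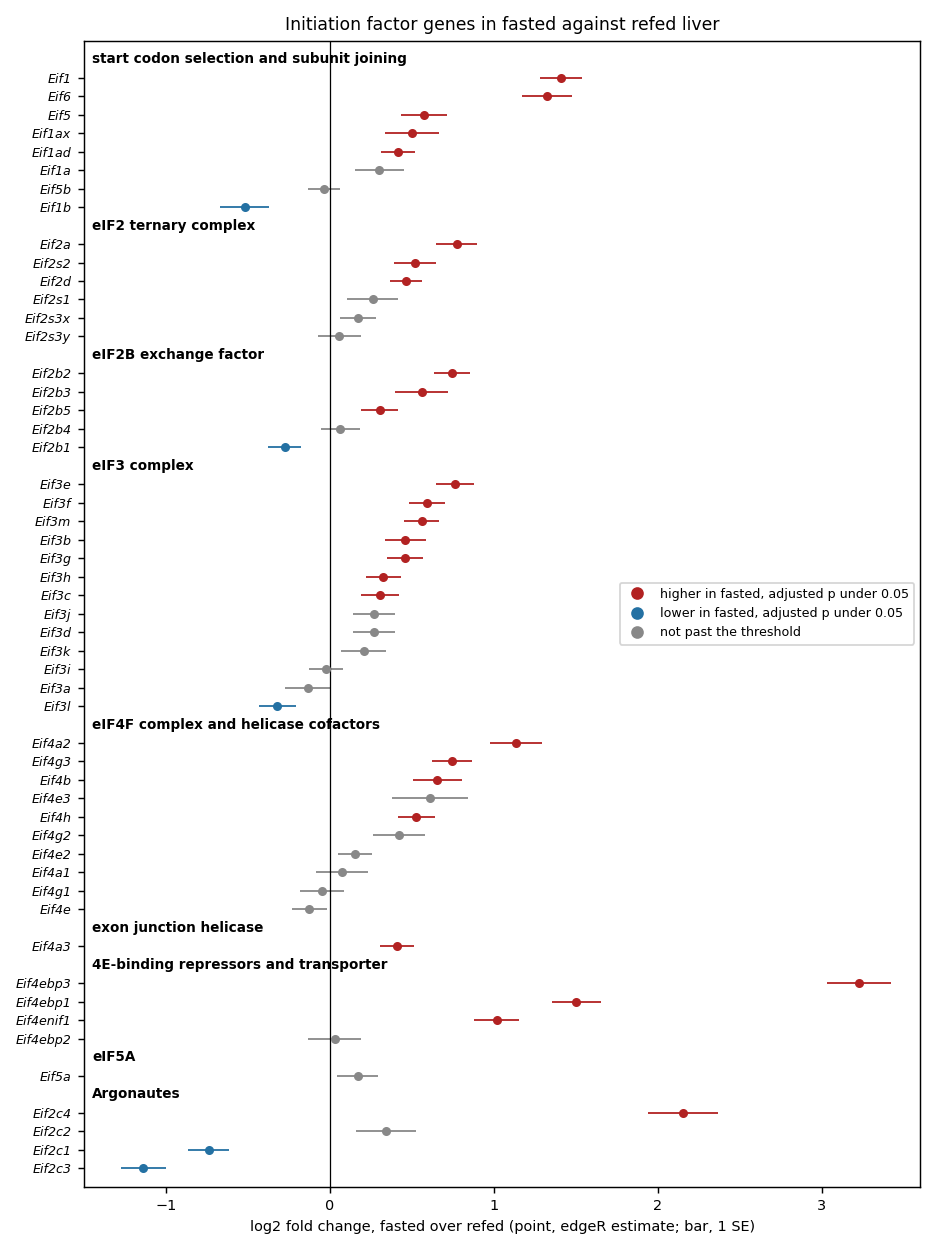
Log2 fold change of each tested initiation factor gene, fasted over refed (point, edgeR estimate; bar, 1 SE; 3 libraries per group), ordered by role. Eif4ebp3 has the highest value at 3.23 and Eif2c3 the lowest at -1.14.

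The 4E-binding group holds the proteins that keep eIF4E from its scaffold. Of 4 genes tested, 3 were higher in fasted livers and 0 lower, where 29.2% of all tested genes were higher and 30.2% lower. The median log2 fold change of the 4 was 1.26. Eif4ebp3 (ENSMUSG00000090264, mm9 chromosome 18, 36823714 to 36825571), the least studied of the 3 binding proteins, had 243, 303 and 334 CPM in fasted livers, against 38.5, 27.9 and 27.5 CPM in refed livers. The groups were far apart, and each fasted library was more than 6 times the highest refed library. The means were 293 ± 46.2 CPM in fasted and 31.3 ± 6.25 CPM in refed livers (SD, n = 3 each), a log2 fold change of 3.23 (SE 0.20, adjusted p = 1.03e-05). That value was higher than 98.6% of all tested genes.

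Eif4ebp3 overlaps the neighbouring gene Ankhd1 in the table's coordinates, and reads in the overlap could be counted for either. Ankhd1 went the other way, at 17.2 ± 3.89 CPM in fasted and 31.5 ± 3.76 CPM in refed livers (SD, n = 3 each, log2 fold change -0.87, adjusted p = 0.0032). Eif4ebp1 (ENSMUSG00000031490, mm9 chromosome 8, 28370799 to 28386128), the best known substrate of mTORC1 in this family, had 84.3, 89.1 and 71.7 CPM in fasted livers, against 32.8, 30.1 and 23.6 CPM in refed livers. All fasted values were more than 2 times the highest refed value. The log2 fold change was 1.5 (SE 0.15, adjusted p = 9.3e-05).

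Eif4ebp2, the binding protein known for its part in neurons, did not pass the test. It had 61.6, 58.9 and 48.7 CPM in fasted livers, against 47.3, 50.2 and 68.2 CPM in refed livers, and the groups overlapped, with refed replicate 3 the highest of all. Its log2 fold change was 0.03 (SE 0.16, adjusted p = 0.89). Eif4enif1, which carries eIF4E into the nucleus and into RNA granules, had 51.2, 39.3 and 52.1 CPM in fasted livers, against 24.9, 23.9 and 21.6 CPM in refed livers, without overlap (log2 fold change 1.02, SE 0.14, adjusted p = 0.000381). It overlaps Drg1 in the table, whose log2 fold change of 0.17 did not pass.

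The groups did not overlap in the make-up of the 3 binding protein transcripts. Per kb of the table's gene lengths, Eif4ebp3 made up 72.4%, 76.1% and 81.3% of the 3 genes in fasted livers, against 45.1%, 37.7% and 35.7% in refed livers. Eif4ebp2 made up 6.96% ± 1.51 in fasted and 32.7% ± 7.74 in refed livers, and Eif4ebp1 16.4% ± 2.95 in fasted and 27.8% ± 4.0 in refed livers (SD, n = 3 each). With merged exon lengths of GENCODE M21, the share of Eif4ebp3 was 89.2% ± 2.35 in fasted and 64.6% ± 3.91 in refed livers (SD, n = 3 each). The sources used here do not say how the table's lengths were defined, so a share depends on the length scale, while its direction was the same on both. An exact permutation test of the shares on the table's lengths gave p = 0.1 (two-sided, n = 3 each), the smallest that 3 against 3 allows. The shares on merged exon lengths were not tested.

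**Figure D3:**
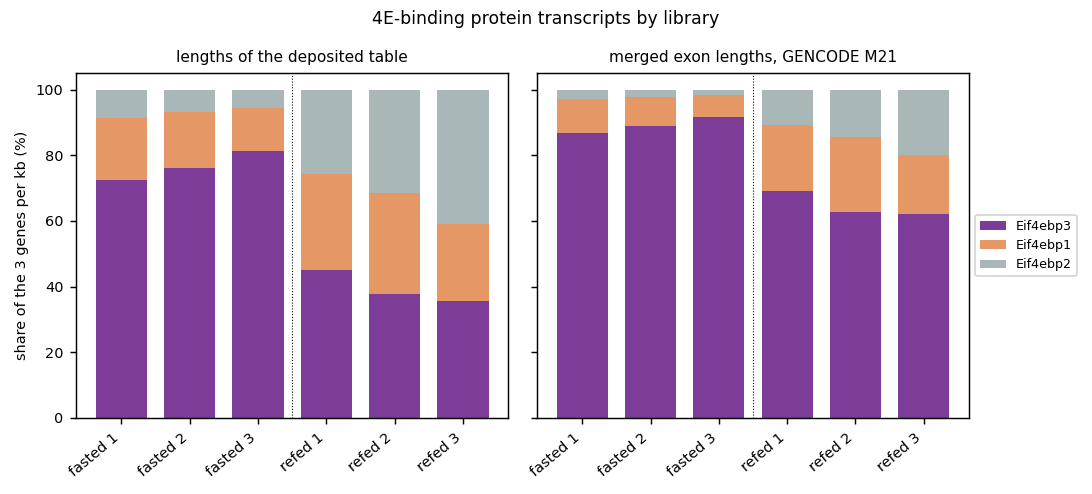
Share of Eif4ebp3, Eif4ebp1 and Eif4ebp2 in the sum of the 3 genes per kb (y axis, percent) in each library, with the table's lengths on the left and merged exon lengths on the right. In both panels Eif4ebp3 takes a larger share in every fasted library than in any refed library.

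The partner they bind, Eif4e, the cap-binding protein itself, had 54.4, 53.9 and 45.8 CPM in fasted livers, against 58.2, 56.2 and 53.7 CPM in refed livers. The groups overlapped narrowly, and the log2 fold change of -0.13 (SE 0.11, adjusted p = 0.34) did not pass. With library totals it was -0.34 (adjusted p = 0.0173). The summed level per kb of the 3 binding protein genes was 23.9, 28.6 and 34.7 times that of Eif4e in fasted livers, against 5.69, 5.10 and 5.56 times in refed livers. On merged exon lengths these ratios averaged 52.3 ± 11.4 in fasted and 6.93 ± 0.711 in refed livers (SD, n = 3 each). For Eif4ebp1 alone, the ratio to Eif4e was 4.67 ± 0.165 in fasted and 1.51 ± 0.192 in refed livers on the table's lengths (SD, n = 3 each). On the table's lengths, each of these ratios gave p = 0.1 in an exact permutation test (two-sided, n = 3 each). The ratios on merged exon lengths were not tested.

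**Figure D4:**
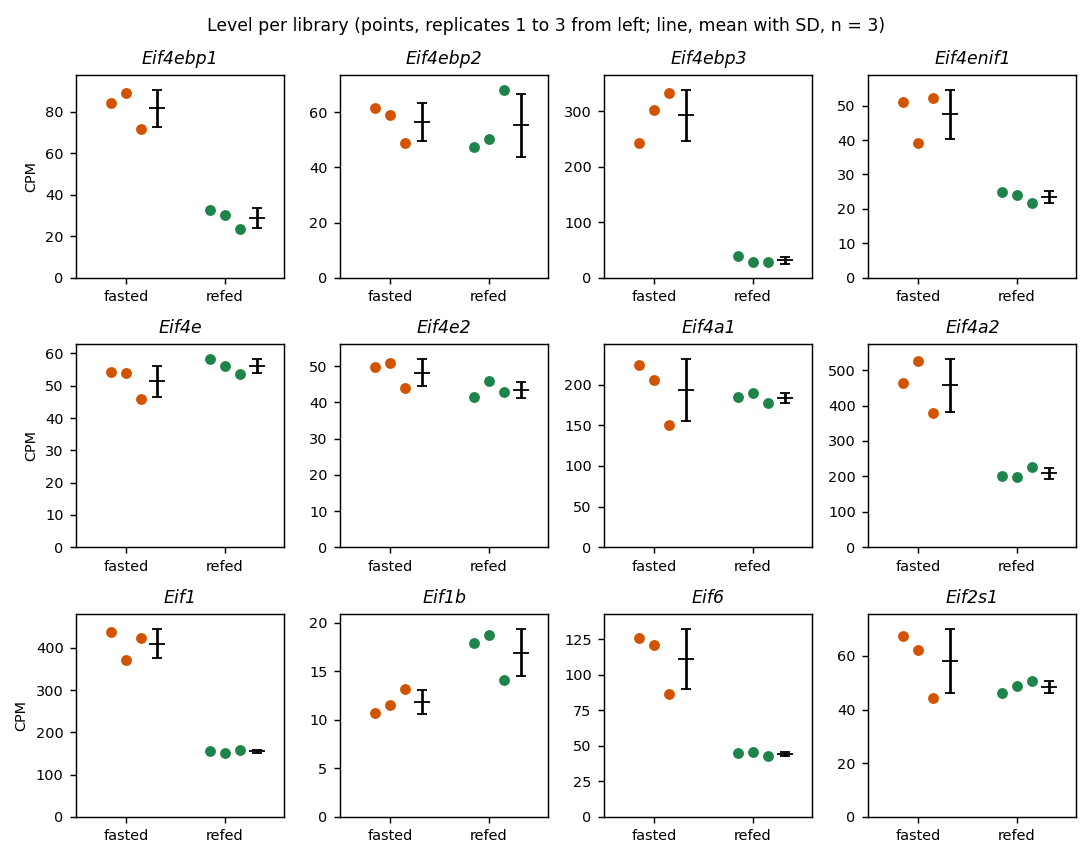
Level of 12 initiation factor genes in each library (y axis, CPM from 0; points, replicates 1 to 3 of each group from the left; line, mean with SD, n = 3). Eif4ebp1, Eif4ebp3, Eif4enif1, Eif4a2, Eif1 and Eif6 separate the groups with fasted above, Eif1b separates them with fasted below, and the others overlap.

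In the eIF4F group, which unwinds and scaffolds the mRNA and here includes Eif4e, 4 of 10 tested genes were higher and 0 lower. Their median log2 fold change was 0.47. With 29.2% of all tested genes higher and 30.2% lower, the share of higher genes was not far above the background. Eif4a2 (ENSMUSG00000022884, mm9 chromosome 16, 23107517 to 23114209), one of the paired helicase genes, had 465, 527 and 379 CPM in fasted livers, against 200.3, 199 and 226 CPM in refed livers. All fasted values were well above the refed ones (log2 fold change 1.13, SE 0.16, adjusted p = 0.00046). Its close copy Eif4a1 had 224, 205 and 151 CPM in fasted livers, against 185, 189 and 177 CPM in refed livers. Fasted replicate 3 was the lowest of all 6, and the log2 fold change was 0.07 (SE 0.16, adjusted p = 0.71).

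Per kb of the table's lengths, Eif4a2 made up 67.4%, 71.9% and 71.5% of the 2 helicase genes in fasted livers, against 51.9%, 51.2% and 56.0% in refed livers. On merged exon lengths the share was 65.8% ± 2.68 in fasted and 47.9% ± 2.61 in refed livers (SD, n = 3 each). Reads shared by such similar genes can be assigned to either, so the split between Eif4a1 and Eif4a2 is uncertain. The helicase cofactors Eif4b (log2 fold change 0.66, adjusted p = 0.00567) and Eif4h (0.53, adjusted p = 0.00379) rose as well.

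Of the scaffolds, Eif4g3 rose, at 78.0 ± 6.64 CPM in fasted and 46.6 ± 5.15 CPM in refed livers (SD, n = 3 each, log2 fold change 0.74, adjusted p = 0.00112). Eif4g1, the main scaffold, was at 536 ± 29.5 CPM in fasted and 554 ± 42.7 CPM in refed livers (SD, n = 3 each, log2 fold change -0.05, adjusted p = 0.78). Eif4g2, a relative that lacks the eIF4E binding site, had 907, 813 and 679 CPM in fasted livers, against 543, 591 and 658 CPM in refed livers. Its groups did not overlap, but fasted replicate 3 came close to the refed values, and the log2 fold change of 0.42 missed the threshold (adjusted p = 0.0505). Without fasted replicate 3 it was 0.53 (adjusted p = 0.00365).

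Of the other cap-binding genes, Eif4e2, known as a cap-binding protein that does not recruit the scaffold, had a log2 fold change of 0.15 (adjusted p = 0.24). Eif4e3 had 4.26, 5.90 and 7.46 CPM in fasted livers, against 4.07, 4.28 and 3.21 CPM in refed livers, with a narrow overlap (log2 fold change 0.61, adjusted p = 0.0502). Without fasted replicate 1 it was 0.80 (adjusted p = 0.0154). Eif4e1b, a gene known from oocytes, and the second Eif4e3 row, with 13 reads in all libraries together, were too low to test. Eif4a3, the helicase of the exon junction complex and not of eIF4F, had 37.3, 37.6 and 41.0 CPM in fasted livers, against 29.1, 30.8 and 27.4 CPM in refed livers. It rose without overlap (log2 fold change 0.41, SE 0.10, adjusted p = 0.00841), a call that was lost with library totals (0.20, adjusted p = 0.15).

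Among the 8 genes grouped under start codon selection and subunit joining, 5 were higher, 1 was lower and 2 did not pass. Their median log2 fold change was 0.46. Of all tested genes, 29.2% were higher and 30.2% lower. The group name is loose, because it also holds Eif6, which keeps the subunits apart and is among the higher genes. Eif1 (ENSMUSG00000035530, mm9 chromosome 11, 100181199 to 100183410), which keeps the scanning ribosome from stopping at poor start codons, had 438, 371 and 423 CPM in fasted livers, against 157, 150.3 and 157 CPM in refed livers. The refed values were nearly equal and the fasted ones all more than 2 times as high (log2 fold change 1.41, SE 0.13, adjusted p = 5.82e-05). Its close relative Eif1b went the other way, with 10.7, 11.6 and 13.2 CPM in fasted livers, against 17.9, 18.8 and 14.1 CPM in refed livers. The groups did not overlap, but the nearest values were close (log2 fold change -0.52, SE 0.15, adjusted p = 0.0165). The call on Eif1b was lost without fasted replicate 1, fasted replicate 2, refed replicate 1 or refed replicate 2 (adjusted p = 0.0603, 0.0526, 0.0548 and 0.0707 in that order).

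Eif5, which makes eIF2 hydrolyse its GTP once a start codon is found, had 459, 432 and 392 CPM in fasted livers, against 259.8, 282 and 322 CPM in refed livers (log2 fold change 0.57, adjusted p = 0.00819). The ratio of Eif1 to Eif5 per kb of the table's lengths was 3.64 ± 0.421 in fasted and 2.04 ± 0.218 in refed livers (SD, n = 3 each, p = 0.1 in a two-sided exact permutation test). Eif6 (ENSMUSG00000027613, mm9 chromosome 2, 155645568 to 155652661), which holds the large ribosomal subunit apart from the small one, had 126, 121 and 86.8 CPM in fasted livers, against 44.9, 45.3 and 42.9 CPM in refed livers. Fasted replicate 3 was the lowest of the fasted values and still above every refed one (log2 fold change 1.33, SE 0.15, adjusted p = 0.000183).

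The eIF1A genes, which help the ribosome to scan, were Eif1a and its close copy Eif1ax on the X chromosome. Eif1ax passed (log2 fold change 0.50, adjusted p = 0.0302), although its fasted values of 73.3, 59.9 and 45.2 CPM spread widely above refed values of 42.0, 42.0 and 42.2 CPM. That call was lost when any library other than fasted replicate 3 was left out, with adjusted p between 0.0698 and 0.0906. Eif1a had a log2 fold change of 0.30 (adjusted p = 0.12) and was highest in fasted replicate 3, where Eif1ax was lowest of the fasted libraries. Eif1ad rose (0.42, adjusted p = 0.00892), a call lost with library totals (0.21, adjusted p = 0.136), as was that on Eif1ax (0.28, adjusted p = 0.154). Eif5b, the GTPase of subunit joining, had a log2 fold change of -0.03 (adjusted p = 0.78).

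Of the 6 genes for delivery of the initiator tRNA, 3 were higher, 0 lower and 3 did not pass. Their median log2 fold change was 0.36, and 29.2% of all tested genes were higher and 30.2% lower. Eif2s1 (ENSMUSG00000021116, mm9 chromosome 12, 79962806 to 79987997) encodes the alpha subunit of eIF2, the one that the stress kinases phosphorylate. It had 67.5, 62.3 and 44.5 CPM in fasted livers, against 46.1, 48.8 and 50.6 CPM in refed livers, so fasted replicate 3 lay below all refed values and the others above them. The log2 fold change of 0.26 (SE 0.16, adjusted p = 0.18) did not pass. Without fasted replicate 3 it was 0.42 (adjusted p = 0.00403).

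The beta subunit gene Eif2s2 rose (log2 fold change 0.52, adjusted p = 0.00862), a call lost with library totals (0.30, adjusted p = 0.0544). The gamma subunit is encoded by Eif2s3x on the X and Eif2s3y on the Y chromosome, and neither passed. Eif2s3y had 67.3, 63.7 and 49.6 CPM in fasted livers, against 59.6, 56.2 and 57.6 CPM in refed livers, which overlapped (log2 fold change 0.06, adjusted p = 0.72). Eif2s3x had a log2 fold change of 0.17 (adjusted p = 0.21), and reads of such close copies may be split between them.

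Eif2a, a separate protein that can also deliver the initiator tRNA, had 63.5, 62.3 and 51 CPM in fasted livers, against 33.0, 32.2 and 38.2 CPM in refed livers. It rose without overlap (log2 fold change 0.77, SE 0.13, adjusted p = 0.00107). It overlaps Serp1 in the table, which was lower in fasted livers, at 225 ± 12.3 CPM in fasted and 564 ± 54.2 CPM in refed livers (SD, n = 3 each, log2 fold change -1.32). Eif2d, another such factor, rose by a log2 fold change of 0.47 (adjusted p = 0.00365).

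The exchange factor eIF2B, which reloads eIF2 with GTP, has 5 subunit genes. Of these, 3 were higher, 1 was lower and 1 did not pass (median log2 fold change 0.30). The shares over all tested genes were 29.2% higher and 30.2% lower. Eif2b2 had 22.7, 25.6 and 22.8 CPM in fasted livers, against 13.9, 14.7 and 13.8 CPM in refed livers. The 3 values of each group lay close together and far from the other group (log2 fold change 0.75, SE 0.11, adjusted p = 0.000579). Eif2b1, the alpha subunit, one of those through which phosphorylated eIF2 is sensed, had 20.7, 21.5 and 21.7 CPM in fasted livers, against 24.9, 27.7 and 24.8 CPM in refed livers, a small step down without overlap (log2 fold change -0.28, SE 0.10, adjusted p = 0.0451).

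The calls on Eif2b1 and on Eif2b5, the catalytic subunit (log2 fold change 0.30, adjusted p = 0.0438), were lost in every fit that left out a library other than fasted replicate 3, with adjusted p between 0.0597 and 0.172 for Eif2b1 and between 0.101 and 0.133 for Eif2b5. Eif2b3 rose (0.56, adjusted p = 0.0157) and was lost without fasted replicate 1 or 2 or refed replicate 2 or 3, with adjusted p between 0.0535 and 0.0647, so that in each of those 4 fits Eif2b2 was the 1 eIF2B gene called higher. With library totals the calls on Eif2b3 and Eif2b5 were lost as well (adjusted p = 0.0774 and 0.487). Eif2b4 had a log2 fold change of 0.06 (adjusted p = 0.66). The ratio of Eif2b5 to Eif2s1 per kb was 1.72 ± 0.193 in fasted and 1.65 ± 0.103 in refed livers on the table's lengths (SD, n = 3 each, p = 0.7 in a two-sided exact permutation test).

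eIF3, the large scaffold between the small subunit and eIF4G, has 13 genes here. Of these, 7 were higher, 1 was lower and 5 did not pass, where 29.2% of all tested genes were higher and 30.2% lower. The median log2 fold change of the eIF3 genes was 0.31, so the shifts were modest. Eif3e had 143, 135 and 121 CPM in fasted livers, against 73.8, 80.1 and 80.7 CPM in refed livers. It rose without overlap and by more than any other eIF3 gene (log2 fold change 0.76, SE 0.11, adjusted p = 0.00066). Eif3f (0.59, adjusted p = 0.00194) and Eif3m (0.56, adjusted p = 0.00222) followed. Eif3b, a core subunit, and Eif3g both rose by a log2 fold change of 0.46 (adjusted p = 0.0135 and 0.00758).

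Eif3l, a peripheral subunit, had 71.9, 73.0 and 60.1 CPM in fasted livers, against 83.8, 86.3 and 86.0 CPM in refed livers. It was the 1 eIF3 gene that fell (log2 fold change -0.32, SE 0.11, adjusted p = 0.0365), and the call was lost without any library other than fasted replicate 2, with adjusted p between 0.0551 and 0.104. Eif3h (0.33, adjusted p = 0.0286) and Eif3c (0.31, adjusted p = 0.0461) were lost without any library other than fasted replicate 3, with adjusted p between 0.0561 and 0.105 for Eif3h and between 0.0779 and 0.167 for Eif3c. Eif3b was lost without refed replicate 2 or 3 (adjusted p = 0.0668 and 0.0529). Over all genes, 3867 were higher and 3999 lower with every library, and 4281 and 4431 without fasted replicate 3. These counts were 3151 and 3411 without refed replicate 2, and 3392 and 3610 without refed replicate 3. Without fasted replicate 3, 10 eIF3 genes were higher and 0 lower, with Eif3d, Eif3j and Eif3k gained. Without refed replicate 2 or refed replicate 3, 4 were higher and 0 lower. With library totals, 3 were higher and 2 lower, and the calls on Eif3b, Eif3c, Eif3g and Eif3h were lost, with adjusted p between 0.0776 and 0.488. Eif3a, the largest subunit, and Eif3i had log2 fold changes of -0.14 and -0.02 (adjusted p = 0.42 and 0.85).

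Fasted replicate 3 bears on many of these genes. Its level was below the mean of fasted replicates 1 and 2 for 39 of 52 initiation factor genes (75%), against 49.7% of all tested genes, with a median log2 difference of -0.18, against 0.0033 over all tested genes. Without it 33 initiation factor genes were higher and 4 lower, with calls gained for Eif4g2, Eif3j, Eif3d, Eif2c2, Eif2s1 and Eif3k and lost for Eif3l. Calls over all genes rose too, from 3867 higher and 3999 lower to 4281 and 4431. Fasted replicate 3 is also the library with neutrophil transcripts, which summed to 125 CPM there and to under 2 CPM in fasted replicates 1 and 2. Their part in the result was not tested.

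Eif5a, the hypusine-bearing factor that helps elongation and termination, had 380, 363 and 335 CPM in fasted livers, against 323, 331 and 304 CPM in refed livers. The groups were just separate, but the log2 fold change of 0.17 (SE 0.12, adjusted p = 0.27) did not pass. Its relative Eif5a2 was too low to test, at 0.244 ± 0.0533 CPM in fasted and 0.133 ± 0.0980 CPM in refed livers (SD, n = 3 each). Of the enzymes that place hypusine on Eif5a, Dohh rose (log2 fold change 0.42, adjusted p = 0.0445) and Dhps had 0.31 (adjusted p = 0.0972). The call on Dohh was lost with library totals (0.21, adjusted p = 0.301) and without any library other than fasted replicate 1, with adjusted p between 0.0641 and 0.148.

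The Argonautes, which carry small RNAs to their mRNA targets and are not initiation factors, came in through their older symbols and moved in different directions. Eif2c4 (Ago4) had 9.6, 7.82 and 12.2 CPM in fasted livers, against 2.21, 2.56 and 1.90 CPM in refed livers, far apart (log2 fold change 2.15, SE 0.21, adjusted p = 9.07e-05). Eif2c3 (Ago3) had 4.68, 5.28 and 4.78 CPM in fasted livers, against 9.87, 11.3 and 11.2 CPM in refed livers, with a wide gap between the groups (log2 fold change -1.14, SE 0.14, adjusted p = 0.000226). Eif2c1 (Ago1) fell (-0.74, adjusted p = 0.00134). Eif2c2 (Ago2), the one able to cut its target, had a log2 fold change of 0.34 (adjusted p = 0.13). Without fasted replicate 3 it was 0.50 (adjusted p = 0.0104). Without the Argonautes, 26 of 48 tested genes were higher and 3 lower, where 29.2% of all tested genes were higher and 30.2% lower. The median log2 fold change of the 48 was 0.41.

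Per kb of the table's lengths, Eif4g2, Eif1 and Eif4a2 held ranks 1, 2 and 3 in both fasted and refed livers. Below them, Eif4ebp3 held rank 4 of the 55 rows on the table's lengths and rank 1 on merged exon lengths in fasted livers, against rank 25 and rank 8 in refed livers. On merged exon lengths, Eif1 held rank 2 in fasted livers, against rank 3 in refed livers, and Eif4a2 rank 4 in fasted livers, against rank 9 in refed livers. Ranks between genes depend on the length scale, as for Eif4g2, whose length is 0.599 kb in the table and 10.2 kb in merged exons.

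The genes were also grouped by the motifs of their promoter windows. Genes without a window are in none of these groups. Among them are Eif4ebp3, Eif4ebp1 and Eif6, all higher by at least 2-fold, while Eif2c4, Eif1, Eif4a2 and Eif4enif1 have a window. Of the 9 tested genes with an E-box (Eif1b, Eif3a, Eif3f, Eif3k, Eif4a1, Eif4e, Eif4g1, Eif4h and Eif5a), 2 were higher and 1 lower, with a median log2 fold change of 0.07. Of the 32 with a window and no E-box, 19 were higher and 4 lower, with a median of 0.41. Over all tested genes with a window, the medians were 0.04 with an E-box and -0.02 without. Calls over all genes were not split by motif. Of all 13248 tested genes, with or without a window, 29.2% were higher and 30.2% lower. Of the 11 genes with a pyrimidine start, 7 were higher and 1 lower (median 0.42), against 14 higher and 4 lower of 30 without (median 0.27). Of the 20 tested genes with the ETS-type motif, 11 were higher and 4 lower (median 0.36), against 10 higher and 1 lower of 21 without (median 0.27). Over all tested genes with a window, the medians were 0.0044 with the ETS-type motif and -0.02 without, and 0.02 with a pyrimidine start and -0.02 without. These are descriptions of letters in a window and were not tested.

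Of 10 genes for eIF2 kinases and eIF2 phosphatase regulators, which act on initiation factors, 4 were higher and 3 lower, with a median log2 fold change of -0.13. With 29.2% of all tested genes higher and 30.2% lower, these shares are near the background. Eif2ak2, the kinase that senses double-stranded RNA, fell to 5.90 ± 0.626 CPM in fasted livers, against 16.9 ± 2.29 CPM in refed livers (SD, n = 3 each, log2 fold change -1.52, adjusted p = 9.4e-05). Eif2ak3, the kinase of the endoplasmic reticulum, fell too (-1.06, adjusted p = 0.000251), and Eif2ak1, the heme-regulated kinase, rose (0.48, adjusted p = 0.00764), a call lost with library totals (0.27, adjusted p = 0.0884). Eif2ak4, the amino acid sensor, had -0.21 (adjusted p = 0.29), while its activator Gcn1l1 rose (0.95, adjusted p = 0.000353). Ppp1r15a, the inducible subunit that directs the eIF2 phosphatase, rose (1.26, adjusted p = 0.00244).

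Of 12 genes of mTORC1 and of kinases that act on cap binding, 4 were higher and 4 lower (median 0.21), again near the shares of all tested genes. Mknk2, a kinase that phosphorylates eIF4E, had 783, 667 and 804 CPM in fasted livers, against 114, 85.7 and 98.6 CPM in refed livers. The lowest fasted library was more than 5 times the highest refed one (log2 fold change 2.92, SE 0.17, adjusted p = 8.63e-06). Mtor, the kinase itself, rose (1.06, adjusted p = 0.00932), and Mlst8, a subunit of its complex, fell (-1.58, adjusted p = 0.000221). Pdcd4, an inhibitor of eIF4A, fell (-0.65, adjusted p = 0.00201).

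Of 14 genes for poly(A)-binding proteins and partners of scanning, 9 were higher and 2 lower (median 0.58), where 29.2% of all tested genes were higher and 30.2% lower. Pabpc4, a poly(A)-binding protein, rose by a log2 fold change of 1.5 (adjusted p = 0.000451), and Pabpc1, the main one, by 0.78 (adjusted p = 0.00326). Paip1, which links them to eIF4A, rose by 0.95 (adjusted p = 0.000204). Gigyf2, a partner of Eif4e2 in repression, fell (-0.94, adjusted p = 0.000201), while Gigyf1 of the same list rose (1.06, adjusted p = 0.00134). Of 12 genes of elongation and termination, 6 were higher and 4 lower (median 0.31), with the share of lower genes near the background. Eef2k, the kinase that inhibits the elongation factor eEF2, had 1.5, 1.65 and 2.0 CPM in fasted livers, against 14.3, 12.3 and 12.2 CPM in refed livers. It was lower in each fasted library by a wide margin (log2 fold change -2.91, SE 0.17, adjusted p = 9.3e-06), while its substrate Eef2 rose (0.86, adjusted p = 0.000818). The release factor Etf1 rose (0.90, adjusted p = 0.000302). In the same list Gspt1 fell (-0.38, adjusted p = 0.036), while Gspt2, at a mean of 1.71 CPM in fasted livers, rose (2.43, adjusted p = 0.00048).

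The mitochondrial counterparts lay on the other side of 0. Of 6 genes for mitochondrial initiation and elongation, 0 were higher and 5 lower, where 29.2% of all tested genes were higher and 30.2% lower. Their median was -0.67 on the log2 scale. Tsfm, an elongation factor, had the lowest value at -1.54 (adjusted p = 0.000354). Mtif2, which brings the initiator tRNA to the mitochondrial ribosome, fell (-0.66, adjusted p = 0.0019). The difference between the cytosolic and the mitochondrial list was not tested.

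**Figure D5:**
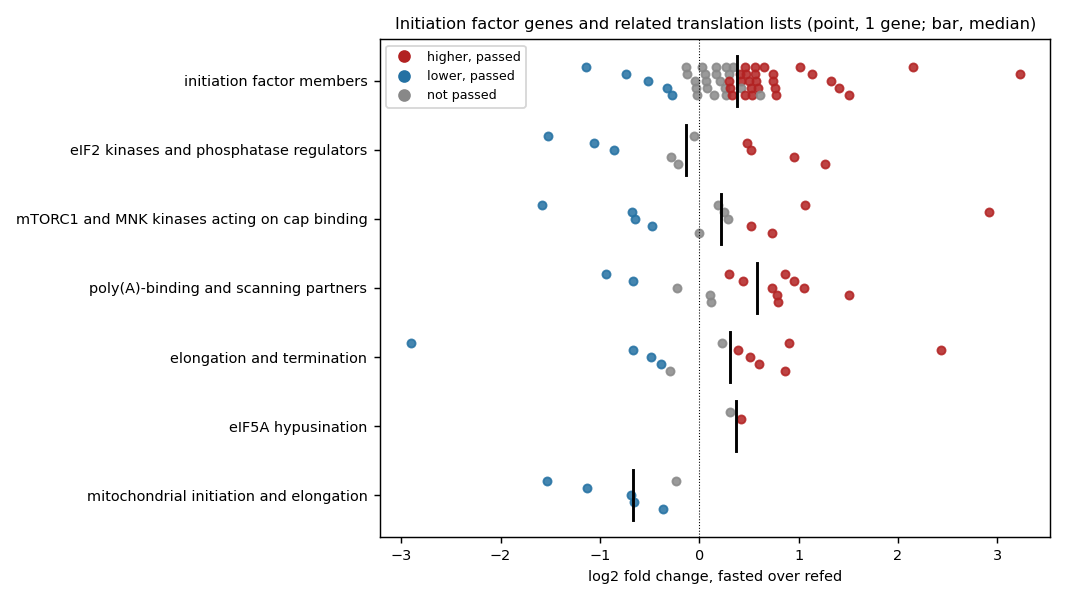
Log2 fold change, fasted over refed (x axis), of each tested gene (point) of the initiation factors and of 6 related lists (rows; bar, median of the list; colours, side of the adjusted p threshold of 0.05). Medians run from -0.67 for the mitochondrial genes to 0.58 for the poly(A)-binding and scanning partners, with 0.38 for the initiation factors.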

How the data were processed

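Liver RNA was sequenced in 3 fasted and 3 refed libraries, grouped by the sample labels. Raw read counts for each gene were deposited by the authors, per the file headers, and these counts were the input of every test. A normalized signal, and that signal per kb of gene length, were deposited beside them. Within each library, 1 factor related count and signal. The signal per kb was used for ratios between genes. The authors' log2 fold change, p-value and adjusted p-value stand beside the counts (deposited table, per its file headers) and were used for 1 comparison of calls. Software listed in the submitters' processing notes, without roles, is HTSeq 0.5.4p3, DESeq2 1.0.19, TopHat2 2.0.10 and Bowtie2 2.1.0, with genome build mm9. The sources used here do not give strand handling or the annotation release, so reads of overlapping genes (12 of the rows overlap another protein_coding gene) and of near-identical copies are uncertain. Of the 41 tested genes without such an overlap, 20 were higher and 5 lower, where 29.2% of all tested genes were higher and 30.2% lower.

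Counts were fitted in edgeR (4.0.16, under R 4.3.3) for the 13248 of 23631 genes that filterByExpr kept at a minimum count of 10. TMM scaling, robust glmQLFit and glmQLFTest were used with the group as the only term, and p-values were adjusted by Benjamini-Hochberg over all tested genes, with a threshold of 0.05. The SE was taken as the size of the log2 fold change over the root of the F statistic. CPM uses TMM-scaled library sizes. The labels do not say whether libraries come from separate animals, so p-values reflect differences among these samples only, and these may be technical. No pair of libraries was alike within sampling noise. Replicate numbers showed no sign of pairing the samples and were not used in the main fit.

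The genes and the lists were chosen with earlier results of these data known. Values in each library are given for Eif4ebp1, Eif4e and Eif2s1 and for the genes with the lowest p and the highest and lowest log2 fold change of each role group. Of the related lists, the called gene with the lowest p in each direction and the largest change are named, with values in each library for Mknk2 and Eef2k. Other genes were named after their values were seen. Merged exon lengths came from GENCODE M21, and coordinates are those of the table (mm9) except for RefSeq promoter windows (GRCm38.p6), which were matched by current symbol. Alternatives were other scalings, other filters, DESeq2 1.42.0, limma-voom (limma 3.58.1), leaving out each library in turn, and a block for the replicate number.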

Additional observations from a re-analysis of the deposited data

How the results depend on the processing

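No called initiation factor gene changed direction in any setting. With library totals, 17 genes were higher, and the median log2 fold change was 0.16, against -0.21 over all genes, for which 2873 were higher and 5074 lower (3867 and 3999 with TMM); relative to all genes the median was 0.38 with both. The related lists then had 16 higher and 22 lower (24 and 18 with TMM). With the replicate number as a block, 24 initiation factor genes were higher and 3 lower. Same-numbered libraries had correlations of deviations of -0.02, -0.06 and -0.08. These show no sign of pairing by number, but with 3 libraries per group they cannot exclude it. Without the Argonautes and the second Eif4e3 row, chosen after seeing the data, 3 were lower. With 1 library left out, between 21 and 33 were higher and between 2 and 4 lower (median 0.33 to 0.40), and 23 of 32 calls held in all 6 such fits. Over all genes, between 3151 and 4281 were higher and between 3411 and 4431 lower in those fits. The other scalings, filters, DESeq2 and limma-voom gave 24 to 29 initiation factor genes higher and 4 or 5 lower. The cause of these shifts was not tested.

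Values that changed sign all belonged to genes that were not called. With library totals these were Eif2b4 (-0.15), Eif2s3x (-0.0443), Eif2s3y (-0.16), Eif3k (-0.0094), Eif4a1 (-0.14), Eif4e2 (-0.0638), Eif4ebp2 (-0.19) and Eif5a (-0.0453). Eif4ebp2 was -0.0013 at a mean of at least 5 CPM, -0.0016 with no filter and -0.0126 with upper-quartile factors. With 1 library left out, Eif2b4 ran between -0.0436 and 0.1302, Eif2s3y between -0.0259 and 0.1833, Eif3i between -0.0909 and 0.0094, Eif4a1 between -0.0419 and 0.2284, Eif4ebp2 between -0.0795 and 0.1997, and Eif4g1 between -0.0951 and 0.0077. Depth limits Eif4e1b, Eif5a2 and the second Eif4e3 row, which lie near the level of 3 counts.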
